A study of Rattus norvegicus with 16 samples.

Results

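The spontaneously hypertensive rat (SHR) is an inbred strain whose blood pressure climbs between weaning and adulthood, and the change described here is that of its mesenteric arteries from 6 weeks to 5 months of age. Of the 16 arrays of the series, 9 were used for this change, namely the 4 arrays of SHR at 5 months and the 5 arrays of SHR at 6 weeks that the labels mark as passing quality control. They carried RNA of 5 pools. At 6 weeks there was 1 pool each of the sublines SHR/NCrL, SHR/SP (stroke-prone) and SHR/NHsd, and at 5 months 1 pool each of SHR/NCrL and SHR/SP. Every pool joined the small branch arteries of 5 male rats of 1 subline, cleaned of blood and fat with adventitia and endothelium kept, so that the spread between single animals cannot be seen and SHR/NHsd was represented at the younger age alone. The normotensive Wistar-Kyoto rat (WKY), with 3 pools at 6 weeks (WKY/NCrL, WKY/NTac, WKY/NHsd) and 2 at 5 months (WKY/NCrL, WKY/NTac) on 1 array each, shared the fit and served as the comparison. Values are log2 ratios of artery RNA to 1 reference RNA mixed from all samples, a change is the fitted difference between 5 months and 6 weeks on that log2 scale, and pool values are given in the order SHR/NCrL, SHR/SP and SHR/NHsd at 6 weeks, then SHR/NCrL and SHR/SP at 5 months. Errors are standard errors of the fitted change, which sets 2 pools of 5 months against 3 pools of 6 weeks. They come from a model of all 14 passing arrays with 10 residual degrees of freedom. In it repeat arrays of a pool count as partly independent, so the errors do not rest on the pools alone. A probe was called, and its gene said to have risen or fallen, when its limma p-value adjusted over all 30367 probes was under 0.05.

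Small mesenteric arteries are resistance vessels, whose tone sets a large part of peripheral resistance. Their wall holds an endothelial lining, a media of contractile smooth muscle and an adventitia of fibroblasts, nerves and immune cells, embedded in fat and accompanied by lymphatics. During postnatal growth such a wall lays down collagen and elastin while its cells divide, and in the adult animal both activities subside.

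By the range of pairwise correlations the arrays of SHR separated by age only partly. The median correlation was 0.337 between pools of the same age and 0.166 between ages. By other measures, principal components and clustering, the paper reports that young and mature rats were clearly apart. Across all probes, arrays of the same pool correlated at 0.489 to 0.669, arrays of different pools of the same age at 0.280 to 0.379, and arrays of different ages at 0.064 to 0.350 (across probes, which are not independent replicates). On the 9 arrays 65.4% to 71.9% of spots were well above background in the artery channel, and all 18 measured genes of the contractile apparatus and all 12 of the endothelium were well above background on every array, so that the layers of the artery that the labels name were present. The 6-week pool of SHR/NCrL was hybridised on 1 slide alone and the other 6-week pools on the second slide alone, whereas both 5-month pools were on both slides.

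Upon maturation 313 probes changed (1.03% of the 30367 tested), of which 108 rose (0.356%) and 205 fell (0.675%). They stood for 241 genes with a symbol, and their fold changes ran from 1.39 to 10.3, with 142 probes over 2-fold. Counted with 1 probe per gene over 15443 genes, 77 genes rose (0.499%) and 157 fell (1.02%). The median change over all probes was 0.014, against -0.97 for the called falls and 0.90 for the called rises. All 313 called probes had 5-month pools that did not overlap the 6-week pools, as had 24.4% of all probes. Among the probes nearest the threshold, *Rgcc* lay just inside (change -1.56, limma adjusted p = 0.0499) and *Csad* just outside (-0.48, limma adjusted p = 0.0503), and both are named only for that place.

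The size of this set rested on how the few pools were treated. With the arrays of each pool averaged to 1 value, 7 probes were called (3 higher, 4 lower). All 313 had an unadjusted limma p of at most 0.0085 in that fit. They were chosen for small p-values on these same arrays, so this is no support for the calls. Leaving out the SHR/SP pool of 5 months left 12 calls, leaving out the SHR/NHsd or the SHR/SP pool of 6 weeks left 35 and 50, and leaving out the SHR/NCrL pool of 5 months left 136, with 82 of these higher. Without the SHR/NCrL pool of 6 weeks there were 464 calls. Of the 60 genes chosen by rule, 57 lost their call without the SHR/SP pool of 5 months, 43 without the SHR/SP pool of 6 weeks, 43 without the SHR/NHsd pool, 30 without the SHR/NCrL pool of 5 months and 4 without that of 6 weeks. No called probe changed its sign in any of these fits, which pools that do not overlap already require when 1 of them is left out.

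**Figure D1:**
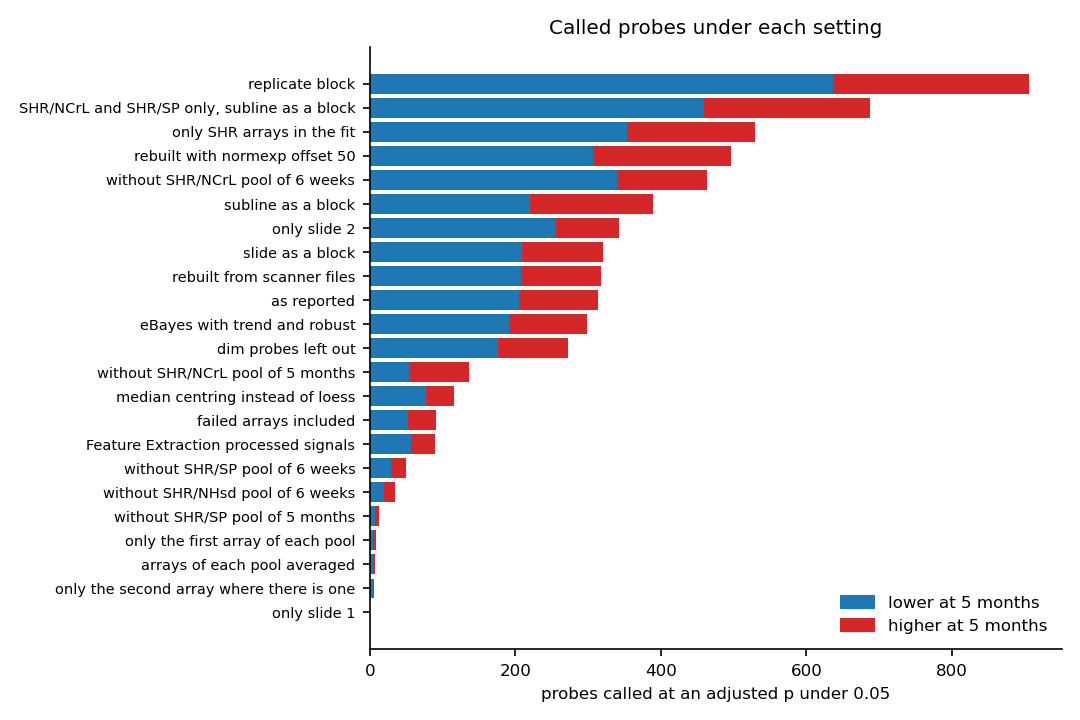
Number of probes called for SHR maturation (horizontal axis, probes at an adjusted p under 0.05) as reported and under each other setting (vertical axis), with falls in blue and rises in red. The count was 313 as reported, 906 with a replicate block, 7 with the arrays of each pool averaged and 0 on slide 1 alone.

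A handful of genes kept their call whichever single SHR pool was left out, though not under every setting. Only 9 probes, 2 of them higher at 5 months, were called no matter which SHR pool was left out, and 6 of these carry a symbol, namely *C1qtnf6*, *Pi15*, *Ctnna2*, *Hopx*, *Serpina3n* and *Mup4l4*, singled out here after their values were seen. With the arrays of each pool averaged, *Ctnna2* and *Hopx* lost their call (limma adjusted p = 0.0653 for each), as they did with the first or the second arrays alone, and *Serpina3n* lost its call with the second arrays alone. *C1qtnf6* encodes a secreted protein of the C1q and tumour necrosis factor related family. Its pool values were 0.30, 0.53 and 0.77 at 6 weeks and -1.25 and -1.13 at 5 months. The 5-month pools lay far below all 6-week pools and close to each other, and the gene changed by -1.74 ± 0.15 (SE) on the log2 scale (limma adjusted p = 9e-05). A second *C1qtnf6* probe changed by -0.78, and it was called with 2 of the 5 SHR pools left out but not with the arrays of each pool averaged (limma adjusted p = 0.118). *Pi15* encodes a secreted peptidase inhibitor. Its ratios were 0.43, 0.50 and 0.15 at 6 weeks and -1.43 and -1.64 at 5 months, a change of -1.89 ± 0.19 (SE), 3.71-fold, limma adjusted p = 0.00034. All pools of 1 age were again on 1 side, and with any pool left out the change of *Pi15* stayed between -2.01 and -1.78. *Serpina3n*, a secreted serine protease inhibitor that rises in inflammation, moved the other way. It was measured at -1.62, -1.49 and -1.59 at 6 weeks and 0.34 and 0.94 at 5 months. Its 6-week pools differed by little, the SHR/SP pool was the higher at 5 months, and the change was 2.21 ± 0.23 (SE), 4.61-fold, limma adjusted p = 0.00046, or 1.90 to 2.51 with a pool left out.

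The other falls called with any single pool left out were in *Ctnna2*, an alpha-catenin that links cadherins to actin, and *Hopx*, a homeodomain protein that lacks DNA binding of its own. *Ctnna2* had pool values of 0.78, 0.92 and 0.77 at 6 weeks and -0.69 and -0.60 at 5 months. *Hopx* had values of 0.27, 0.21 and 0.24 at 6 weeks and -0.71 and -0.58 at 5 months. For both genes the pools of an age were tightly grouped and the ages did not overlap. Their changes were -1.47 ± 0.18 and -0.88 ± 0.11 (SE), with limma adjusted p of 0.00164 and 0.00246. A second *Ctnna2* probe was at -0.14 and not called. In WKY the changes of *C1qtnf6*, *Pi15*, *Serpina3n*, *Ctnna2* and *Hopx* were -1.87, -2.002, 1.97, -0.46 and -0.57.

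The sixth of these genes belongs to the major urinary proteins, lipocalins that bind small hydrophobic ligands and are best known as products of rat liver and glands under control of sex and growth hormones. Of 6 measured genes of the family 5 rose (*Mup4l4*, *Obp3*, *Mup4*, *Mup4l1* and *Mup5*) and *Mup4l3* was not called, with a median change of 1.56 in SHR and 1.35 in WKY. The family was picked after its values had been seen. The promoters of the 5 genes that rose are shown because their genes moved together and because the windows resemble each other closely. Each line gives the 150 bases before the annotated start, 5′ to 3′ on the gene's own strand, from the RefSeq promoter table of assembly GRCr8, with the motif TATAAA in capitals.
Mup4l4: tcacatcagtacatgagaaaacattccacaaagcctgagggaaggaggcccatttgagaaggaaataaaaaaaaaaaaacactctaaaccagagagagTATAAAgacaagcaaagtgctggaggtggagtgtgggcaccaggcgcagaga
Obp3: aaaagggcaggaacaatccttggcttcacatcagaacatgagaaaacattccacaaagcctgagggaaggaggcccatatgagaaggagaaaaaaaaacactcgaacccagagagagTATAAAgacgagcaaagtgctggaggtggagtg
Mup4: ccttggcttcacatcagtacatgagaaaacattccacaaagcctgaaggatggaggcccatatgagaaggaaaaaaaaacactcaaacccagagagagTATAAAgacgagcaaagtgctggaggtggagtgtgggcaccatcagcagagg
Mup4l1: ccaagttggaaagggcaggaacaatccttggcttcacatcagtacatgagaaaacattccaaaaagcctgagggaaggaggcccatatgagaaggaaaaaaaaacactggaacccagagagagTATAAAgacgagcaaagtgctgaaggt
Mup5: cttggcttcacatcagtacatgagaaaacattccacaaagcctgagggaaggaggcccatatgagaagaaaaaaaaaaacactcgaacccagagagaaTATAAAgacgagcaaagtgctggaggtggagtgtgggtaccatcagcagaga

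These windows lie on the minus strand at chr5:79707808-79707957 (*Mup4l4*), chr5:79640676-79640825 (*Obp3*), chr5:79759497-79759646 (*Mup4*), chr5:80226535-80226684 (*Mup4l1*) and chr5:79999696-79999845 (*Mup5*). The motif occurred once in each window on the gene's strand, with its first base 52, 33, 52, 27 and 52 bases before the start, whereas 5.15% of the 33469 promoters of the table held it on that strand and 8% on either strand. Over their aligned parts the windows were 93% to 97.7% identical in pairs. Neither transcript nor probe sequences were compared here, so which member of the family each probe measured is uncertain. *Mup4l4* had pool values of -1.37, -1.32 and -1.50 at 6 weeks and 0.79 and 1.12 at 5 months. Its probe was well above background on 0 of the 5 arrays of 6 weeks and on all 4 of 5 months, so that its fitted 5.11-fold difference (limma adjusted p = 9e-05) is against a level not measured above background. For such probes a bound in the artery channel sets the mean of the bright age against, on each array of the dim age, the lowest signal that was well above background or the probe's own if higher. *Mup4*, *Mup5* and *Mup4l1* were likewise above background at 5 months alone. By this reckoning *Mup4* and *Mup4l1* rose at least 3.44-fold and 2.3-fold in the artery channel, without allowance for error. For *Mup4l4* and *Mup5* the artery channel gave more than the ratios did (5.65 against 5.11 and 2.34 against 2.25), so no lower bound is given for them. The reckoning therefore does not bound the fold of the ratios. *Obp3* was above background on 3 of 5 arrays at 6 weeks. Its values were -1.45, -1.19 and -1.61 at 6 weeks and 0.45 and 0.58 at 5 months, a change of 1.93 ± 0.23 (SE), 3.8-fold, limma adjusted p = 0.00158. Every 5-month pool of these 5 genes lay above every 6-week pool. Second probes behaved less uniformly, at 0.98 for *Mup4l4*, 0.996 for *Mup5* and -0.10 for *Mup4* (not well above background on any array), and none of these was called. The markers of exocrine pancreas, a gland near these vessels, had 5 of 8 genes not above background on any array and a median change of 0.063.

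**Figure D2:**
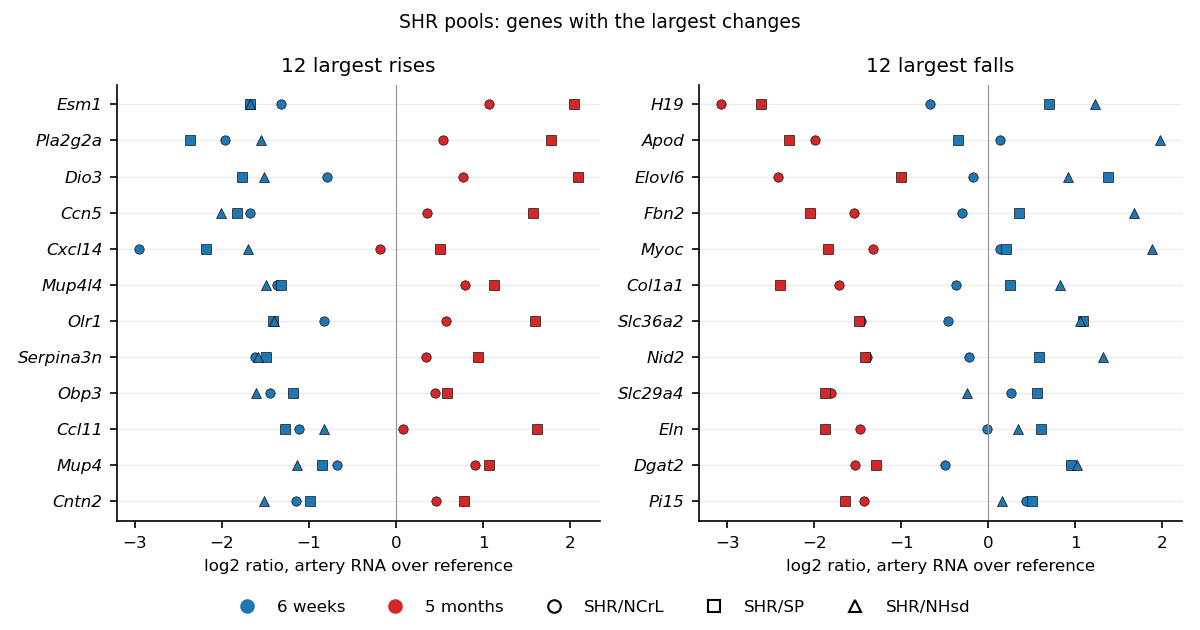
Log2 ratio of artery RNA over reference (horizontal axis) in each SHR pool for the 12 genes with the largest rises and the 12 with the largest falls (vertical axis), with age as colour and subline as symbol. By the rule that chose the genes, no red symbol (5 months) overlaps the range of the blue ones (6 weeks) within a gene. For falling genes such as *H19*, *Apod* and *Fbn2* SHR/NHsd is the highest 6-week pool.

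Apart from *Mup4l4*, *Obp3*, *Mup4* and *Serpina3n*, the 12 largest rises held several genes known from activated endothelium and inflammation. *Esm1*, a proteoglycan secreted by activated endothelium, led them with ratios of -1.32, -1.67 and -1.68 at 6 weeks and 1.07 and 2.04 at 5 months, and its change was 3.13 ± 0.48 (SE), 8.79-fold, limma adjusted p = 0.00702. *Pla2g2a*, a secreted phospholipase of inflammation, had -1.97, -2.37 and -1.55 at 6 weeks and 0.54 and 1.78 at 5 months. Its rise of 3.12 ± 0.67 had the widest error of the 12 and was not called with any SHR pool left out (2.50 to 3.74). *Olr1*, the receptor for oxidised low density lipoprotein, had -0.83, -1.41 and -1.40 at 6 weeks and 0.57 and 1.60 at 5 months, a change of 2.33 ± 0.38. The chemokine *Cxcl14* had -2.95, -2.18 and -1.70 at 6 weeks and -0.19 and 0.50 at 5 months, a change of 2.37 ± 0.35. For *Ccl11*, the eosinophil attractant eotaxin, the values were -1.11, -1.27 and -0.83 at 6 weeks and 0.076 and 1.62 at 5 months. Its SHR/SP pool stood well above its SHR/NCrL pool at 5 months, and the change of 1.91 ± 0.39 was 1.14 without the SHR/SP pool of 5 months. *Dio3*, which inactivates thyroid hormone, *Ccn5*, a matricellular protein that restrains smooth muscle growth, and *Cntn2*, a neural adhesion molecule, rose by 2.84, 2.82 and 1.84. In each of these genes the SHR/SP pool was the higher at 5 months. The paper also measured *Esm1* and *Dio3* by PCR in SHR/SP arteries. There both rises were much smaller than on its arrays and were not marked as significant.

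The list of cytokines, chemokines and adhesion molecules held *Pla2g2a*, *Olr1* and *Cxcl14* among its 29 measured members, of which these 3 rose, 1 fell (*Ccl21*) and 21 had a change above 0, with a median of 0.22 in SHR and 0.56 in WKY. The classic inflammatory mediators *Tnf*, *Il1b* and *Il6* had changes of 0.10, 0.39 and 0.40 and the adhesion molecules *Vcam1*, *Icam1* and *Sele* of -0.40, 0.46 and -0.10, none called. Among 17 genes of complement 2 rose and none fell. *Serping1*, which rose, encodes the C1 inhibitor and had -0.29, -0.58 and -0.073 at 6 weeks and 0.49 and 0.68 at 5 months, a change of 0.90 ± 0.16 (SE), 1.87-fold, limma adjusted p = 0.0144. Its pools were separate between the ages, and the central component *C3* changed by 0.12 and the adipocyte-derived *Cfd* by -1.58, neither called. The genes of interferon response and antigen processing had 0 of 22 called and a median of -0.10. Markers of macrophages (12 genes, median 0.14), T cells (9 genes, 0.053) and B cells and plasma cells (4 genes, -0.061) had no called member. The macrophage median was -0.38 without the SHR/SP pool of 5 months and 0.60 when the SHR/NCrL pool of that age was left out instead. The summed macrophage level, as the mean log2 ratio of the list, was -0.058, -0.14 and 0.52 at 6 weeks and -0.21 and 0.71 at 5 months, so that the SHR/NHsd pool at 6 weeks and the SHR/SP pool at 5 months were both high, and its part in the rises above was not tested.

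Genes of the fibrous extracellular matrix were frequent among the falls. Of 8 fibrillar collagen genes 5 fell (*Col1a1*, *Col5a3*, *Col3a1*, *Col1a2* and *Col5a1*), none rose, and the median was -1.17 in SHR against -1.27 in WKY. *Col1a1*, a chain of type I collagen, the chief load-bearing collagen of the wall, had -0.37, 0.25 and 0.82 at 6 weeks and -1.72 and -2.39 at 5 months. Its 5-month pools lay well below the 6-week pools, and the change was -2.35 ± 0.34 (SE), 5.1-fold, limma adjusted p = 0.0044. A second *Col1a1* probe, also called, changed by -1.41. *Col3a1*, of type III collagen, had 0.47, 0.40 and 1.20 at 6 weeks and -0.72 and -1.34 at 5 months, a change of -1.74 ± 0.27. *Col5a3*, of the type V collagen that starts fibrils, had -0.37, 0.19 and 1.05 at 6 weeks and -0.93 and -1.91 at 5 months, a change of -1.78 ± 0.34. In all 3 the SHR/NHsd pool was the highest of the 6-week pools and the SHR/SP pool the lower at 5 months. *Col1a2* and *Col5a1* fell by 1.44 and 0.90, while *Col11a2* (-0.80), *Col11a1* (-0.29) and *Col2a1* (0.022) of cartilage-type fibrils were not called.

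Around these collagens the matrix was not uniform. Among 15 elastic fibre genes 3 fell and 1 rose. *Eln*, elastin itself, had -0.018, 0.60 and 0.34 at 6 weeks and -1.48 and -1.87 at 5 months and changed by -2.02 ± 0.29 (SE), 4.05-fold, limma adjusted p = 0.00459. *Fbn2*, the fibrillin of developing microfibrils, had -0.31, 0.36 and 1.68 at 6 weeks and -1.54 and -2.05 at 5 months and changed by -2.46 ± 0.43 (SE), 5.51-fold, limma adjusted p = 0.0121. The microfibril protein *Mfap2* fell by 0.81, whereas *Fbn1*, the fibrillin of adult tissue, was at -0.59 and not called. *Ltbp2*, a latent TGF-beta binding protein that associates with microfibrils, had -0.40, 0.34 and -0.65 at 6 weeks and 0.66 and 2.07 at 5 months. It rose by 1.58 ± 0.33, with the SHR/SP pools the higher at both ages and a change of 0.87 without the SHR/SP pool of 5 months. In the basement membrane 3 of 12 genes fell, namely *Nid2* (-2.04 ± 0.36), a linker of laminin and collagen IV, *Col15a1* (-0.98 ± 0.20) and the laminin chain *Lamc1* (-0.80 ± 0.18), while *Col4a1*, its main collagen, was at -0.58 and not called. *Nid2* had a second probe at -0.40, which was not called. Of 17 genes that process and cross-link collagen, the chaperone *Serpinh1* fell (-0.78 ± 0.16) and no other was called, with a median of -0.15. Proteoglycans and matricellular proteins moved both ways in 25 genes, with *Sparc* lower (-0.78 ± 0.13) and *Fmod* (0.78 ± 0.13) and *Ccn5* (2.82 ± 0.40) higher, and *Spp1* (osteopontin) at 2.31 without a call. Of 23 matrix proteases and inhibitors *Adamts9*, which cleaves proteoglycans, fell (-1.34 ± 0.22), and the metalloprotease *Mmp2* (-0.094) and the inhibitor *Timp1* (0.83) were not called. A dimmer probe of the inhibitor *Timp4* was called higher (0.81), whereas its brightest probe was not called.

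**Figure D3:**
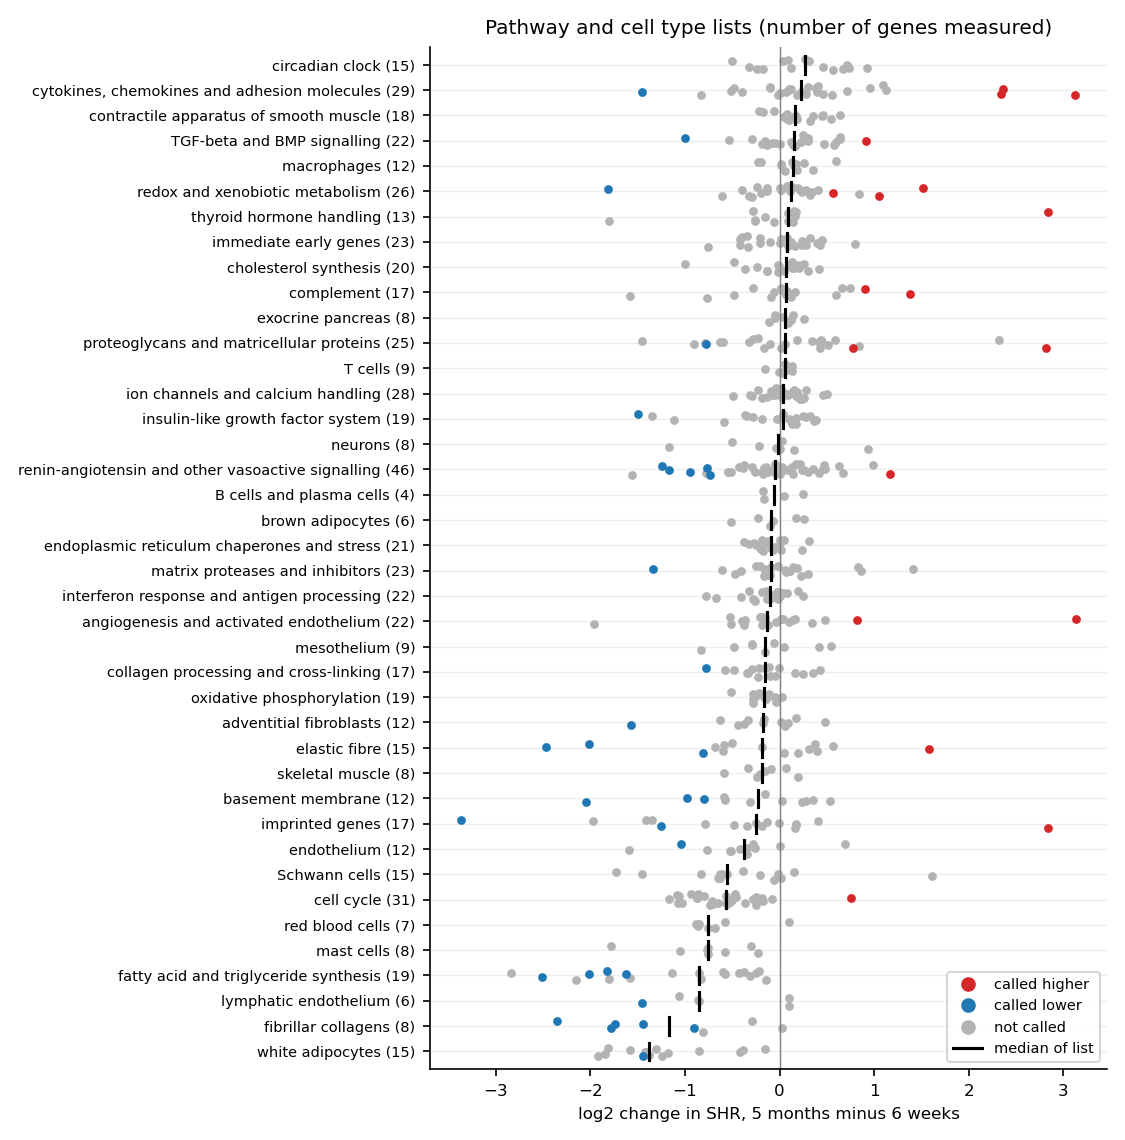
Log2 change in SHR from 6 weeks to 5 months (horizontal axis) of each measured gene in 40 lists of pathways and cell types (vertical axis, number of genes in brackets), 1 point per gene, called rises in red, called falls in blue, other genes in grey and a black bar at the median of the list. The lists of white adipocytes, fibrillar collagens, lymphatic endothelium and fatty acid and triglyceride synthesis have the lowest medians, from -1.38 to -0.85, and most lists have their median close to 0.

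Genes of lipid synthesis and markers of fat cells had lower estimates at 5 months. Of 19 genes of fatty acid and triglyceride synthesis none had a change above 0, 4 fell (*Elovl6*, *Dgat2*, *Agpat2* and *Me1*) and the median was -0.85 (-0.39 in WKY). *Elovl6*, which elongates saturated fatty acids, had -0.17, 1.38 and 0.91 at 6 weeks and -2.42 and -0.997 at 5 months, a change of -2.51 ± 0.53 (SE), 5.68-fold, limma adjusted p = 0.0334, and a second called probe of *Elovl6* was at -1.74. *Dgat2*, the last step of triglyceride synthesis, had -0.50, 0.96 and 1.02 at 6 weeks and -1.53 and -1.29 at 5 months, a change of -2.01 ± 0.44 (SE), 4.02-fold, limma adjusted p = 0.0425. In both genes the SHR/NCrL pool of 6 weeks stood below the other 6-week pools, yet above both 5-month pools. *Agpat2*, of phosphatidic acid synthesis, and *Me1*, which supplies NADPH, fell by 1.82 and 1.62, and *Scd* (-2.84) and *Fasn* (-2.15) were not called despite larger or similar estimates. The list of white adipocyte markers moved with these genes, since 0 of its 15 members had a change above 0, the median was -1.38 (0.075 in WKY) and only the glycerol channel *Aqp7* was called (-1.44 ± 0.32). Its mean level was -0.31, 0.65 and 0.84 at 6 weeks and -0.67 and -0.84 at 5 months, which puts the SHR/SP and SHR/NHsd pools of 6 weeks high and the SHR/NCrL pool of 6 weeks between them and the 5-month pools. In WKY the mean level of this list at 6 weeks was 0.10 (WKY/NCrL), 0.36 (WKY/NHsd) and -1.16 (WKY/NTac). At 5 months it was -0.39 (WKY/NCrL) and 0.059 (WKY/NTac). *Adipoq* and *Fabp4*, which define the cell type, changed by -1.92 and -1.81 without a call, and *Lep* was above background on 2 of 5 arrays at 6 weeks and 0 of 4 at 5 months. Within slide 1, which held the SHR/NCrL pool of 6 weeks, the median of the adipocyte list was -0.52, and within slide 2, which held the others, -1.58. For the synthesis genes these medians were -0.50 and -0.98, and for the fibrillar collagens, whose pools had the order -0.027, 0.28 and 0.75 at 6 weeks and -0.62 and -0.96 at 5 months, -0.73 and -1.32. The part of adherent fat in these falls was not tested, and in RNA of whole vessels fewer cells of a type and less RNA per cell cannot be told apart. The cholesterol pathway had 0 of 20 genes called and a median of 0.072.

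Other genes among the 12 largest falls had pool patterns of both kinds. *Slc36a2*, an amino acid transporter, had -0.46, 1.09 and 1.06 at 6 weeks and -1.47 and -1.48 at 5 months and changed by -2.14 ± 0.41. Its SHR/NCrL pool was the lowest of the 6-week pools, as in the adipocyte list. *Apod*, a lipocalin of lipid transport, had 0.14, -0.35 and 1.97 at 6 weeks and -1.99 and -2.29 at 5 months and changed by -2.77 ± 0.53, with the SHR/NHsd pool of 6 weeks far above the rest. *Myoc* (myocilin), a secreted glycoprotein, had 0.13, 0.20 and 1.88 at 6 weeks and -1.32 and -1.84 at 5 months and changed by -2.38 ± 0.39, again with SHR/NHsd highest. *Slc29a4*, a monoamine transporter, had 0.26, 0.56 and -0.24 at 6 weeks and -1.80 and -1.88 at 5 months and changed by -2.03 ± 0.45, with SHR/NHsd the lowest of the 6-week pools, a second probe at -0.04 and no call when any SHR pool was left out. Across the 205 called falls the SHR/NHsd pool was the highest 6-week pool for 131 and the SHR/NCrL pool the lowest for 136, and the median SD over 6-week pools was 0.267, against 0.165 for the called rises. The shares with these orders were not worked out over all probes, so the orders are not read as particular to the falls.

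**Figure D4:**
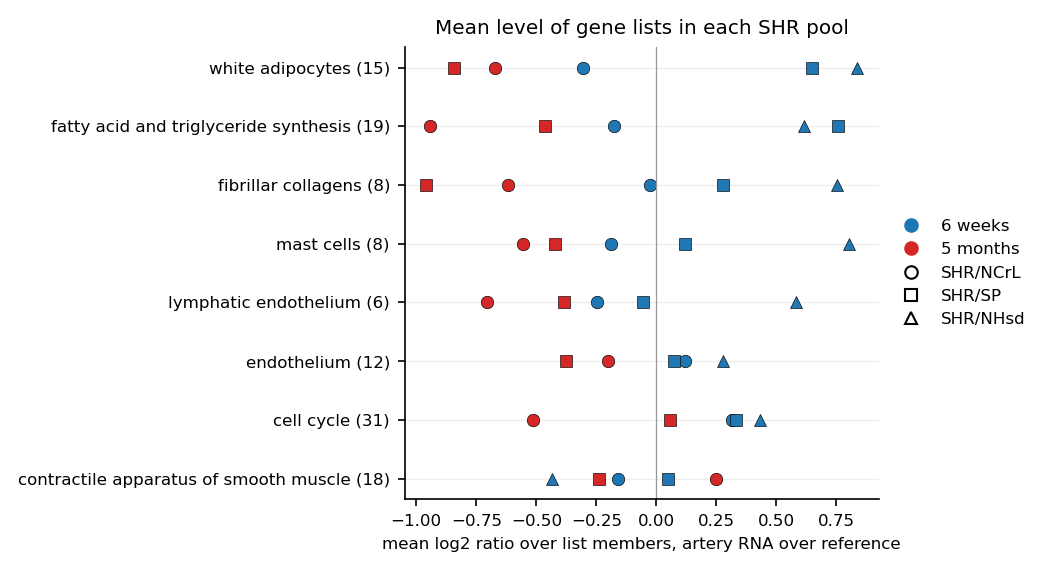
Mean log2 ratio of artery RNA over reference (horizontal axis) over the members of 8 lists (vertical axis, number of genes in brackets) in each SHR pool, with age as colour and subline as symbol. The adipocyte and lipid synthesis lists put SHR/NCrL at 6 weeks between the 5-month pools and the other 6-week pools, and the contractile list has overlapping ages.

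Markers of several other cell types had estimates below 0 as well, mostly without calls. Of 12 endothelial markers *Emcn* (endomucin) fell (-1.04 ± 0.23), 2 had a change above 0 and the median was -0.38, with mean levels of 0.12, 0.071 and 0.28 at 6 weeks and -0.20 and -0.38 at 5 months. A dimmer probe of *Erg*, another of these markers, was called higher (0.58), whereas its brightest probe was not called. *Pecam1* and *Cdh5*, which define the cell type, were at -0.35 and -0.26 and not called. Set against this list, the rise of *Esm1* was opposite in sign. Of 6 lymphatic markers the chemokine *Ccl21* fell (-1.45 ± 0.24), the hyaluronan receptor *Lyve1* was at -0.85 and *Prox1* was not above background on any array, with list means of -0.25, -0.058 and 0.58 at 6 weeks and -0.70 and -0.38 at 5 months. Mast cell genes had 0 of 8 called and 0 above 0 (median -0.76, means -0.19, 0.12 and 0.80 at 6 weeks and -0.56 and -0.42 at 5 months), and Schwann cell genes had 0 of 15 called (median -0.55, means -0.089, -0.013 and 0.59 at 6 weeks and -0.26 and -0.16 at 5 months). In the mast cell, lymphatic and Schwann cell lists the SHR/NHsd pool of 6 weeks was the highest pool, and their part in the called falls was not tested. Red blood cell genes had 0 of 7 called and means of -0.66, -0.31 and -0.25 at 6 weeks and -1.57 and -0.48 at 5 months, with the SHR/NCrL pool of 5 months lowest. Among 12 markers of adventitial fibroblasts *Dpp4* fell (limma adjusted p = 0.0393), although its second probe was at -0.05, and the median of the list was -0.17. *Dpp4* was not above background on any array of 5 months, and its fall was at least 2.79-fold in the artery channel, without allowance for error. Mesothelium, neurons, brown adipocytes and skeletal muscle had no called member, with medians of -0.15, -0.017, -0.085 and -0.18.

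Genes of growth gave a mixed account. *H19*, an imprinted long non-coding RNA of fetal and early postnatal growth, had -0.67, 0.69 and 1.23 at 6 weeks and -3.07 and -2.61 at 5 months. It was the largest fall (-3.37 ± 0.60 (SE), 10.3-fold, limma adjusted p = 0.013), with both 5-month pools far below the range of the others. Among 17 imprinted genes *Ndn* (necdin), which restrains the cell cycle, also fell. Its pool values of 0.84, 0.74 and 0.95 at 6 weeks and -0.29 and -0.53 at 5 months were close within each age, and it changed by -1.25 ± 0.15 (SE), 2.38-fold, limma adjusted p = 0.00169. *Igf2*, the neighbour of *H19*, was at -1.34 and *Mest* at -1.97, both without a call, while *Dio3* rose. In the insulin-like growth factor system *Igfbp3*, a carrier of the ligands, was the 1 gene of 19 that was called. It had 0.31, 0.61 and 0.96 at 6 weeks and -0.80 and -0.88 at 5 months and changed by -1.50 ± 0.20 (SE), 2.83-fold, limma adjusted p = 0.00356. Of 31 cell cycle genes 1 had a change above 0, and that gene, *Ccnd1* (cyclin D1 of the G1 phase), was the only one called (0.76 ± 0.17). The others reached -1.17 (*Ccna2*) without a call, *Mki67* was at -1.06, and the median was -0.57 in SHR and -0.99 in WKY. The SHR median was -0.995 without the SHR/SP pool of 5 months and -0.35 when the SHR/NCrL pool of that age was left out instead. The mean level of the cell cycle list was 0.31, 0.33 and 0.43 at 6 weeks and -0.52 and 0.056 at 5 months, so that the 5-month pools were both below the 6-week pools but differed more from each other than the latter did. Of 22 genes of TGF-beta and BMP signalling 1 rose, the ligand *Bmp2* (0.91 ± 0.16), and 1 fell, with *Tgfb1* at 0.63 and not called. Of 22 angiogenic genes *Pdgfa*, a mitogen of smooth muscle, rose with *Esm1* (0.82 ± 0.13), and *Vegfa* was at -0.15 and *Apln* at -1.96 without calls.

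The contractile machinery was among the groups with no call. None of its 18 genes passed, the median was 0.17, and the list means of -0.16, 0.050 and -0.43 at 6 weeks and 0.25 and -0.24 at 5 months overlapped between the ages. *Acta2*, *Myh11* and *Tagln* changed by 0.061 ± 0.18, 0.079 ± 0.20 and 0.17 ± 0.15 (SE). Of 28 genes of ion channels and calcium handling none was called either (range -0.49 to 0.50), with the L-type channel *Cacna1c* at 0.037 and the large-conductance potassium channel *Kcnma1* at 0.031. The calls lay in receptors and their regulators, where 5 of 46 genes of vasoactive signalling fell and 1 rose. *Rgs4*, which shortens signalling of G protein-coupled receptors, had -0.12, 0.10 and -0.10 at 6 weeks and -1.08 and -1.48 at 5 months. No pool of 1 age reached the range of the other, the change was -1.25 ± 0.15 (SE), 2.37-fold, limma adjusted p = 0.00169, and the related *Rgs2* fell too (-0.77 ± 0.13). *Htr1b*, a constrictor serotonin receptor, had -0.21, -0.073 and 0.17 at 6 weeks and 1.06 and 1.23 at 5 months. Its ages were separate, and it rose by 1.16 ± 0.16 (SE), 2.24-fold, limma adjusted p = 0.00434. *Adra1b*, a constrictor adrenergic receptor, fell by 0.74. *Agtr1a*, *Agt*, *Ace*, *Ednra*, *Edn1* and *Nos3* were at -0.55, -1.56, 0.023, 0.30, 0.076 and -0.29, none called.

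Further vasoactive genes were put together after their values had been seen, and their counts are descriptions. Of 13 peptidases that cleave vasoactive peptides, 4 fell, among them *Mme* (neprilysin, -1.58 ± 0.31), *Enpep* (aminopeptidase A, -1.44 ± 0.25) and *Dpp4*, none rose and the median was -0.20. *Mme* had -0.38, 1.01 and 0.84 at 6 weeks and -1.13 and -0.86 at 5 months. *Enpep* had -0.052, 0.79 and 0.78 at 6 weeks and -0.95 and -0.80 at 5 months. In both the SHR/NCrL pool was the lowest of the 6-week pools, as for 136 of the 205 called falls. Of 13 genes of tetrahydrobiopterin and nitric oxide substrate, *Ddah1*, which clears an inhibitor of nitric oxide synthase, *Gch1*, which starts the synthesis of its cofactor, and *Qdpr*, which recycles that cofactor, fell (-0.78 ± 0.16, -0.73 ± 0.15 and -0.63 ± 0.14). *Gch1* had 0.31, 0.34 and 0.18 at 6 weeks and -0.47 and -0.44 at 5 months, so that each age was narrow, and its change in WKY was 0.029. It lost its call with any single SHR pool left out, and with the arrays of each pool averaged (limma adjusted p = 0.205). The gap junction protein *Gja1* (connexin 43), which couples cells of the wall and is named after its values were seen, had 0.35, 0.93 and 0.63 at 6 weeks and -0.63 and -0.66 at 5 months and changed by -1.31 ± 0.18 (limma adjusted p = 0.00356), against -0.24 in WKY. The difference from WKY was called neither for *Gch1* nor for *Gja1*.

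Redox genes included calls in both directions. Of 26 genes 3 rose and 1 fell. *Nox4*, a NADPH oxidase that makes hydrogen peroxide in the vessel wall, had -0.24, -0.42 and -0.38 at 6 weeks and 0.58 and 0.81 at 5 months and rose by 1.05 ± 0.15 (SE), 2.07-fold, limma adjusted p = 0.00434. *Fmo2*, a flavin monooxygenase, had -0.60, -0.69 and -0.70 at 6 weeks and 0.59 and 1.09 at 5 months and rose by 1.51 ± 0.25 (SE), 2.85-fold, limma adjusted p = 0.00992. The rate-limiting enzyme of glutathione synthesis, *Gclc*, rose (0.56 ± 0.11), and the microsomal glutathione transferase *Mgst1* fell (-1.82 ± 0.41). The 6-week pools of *Mgst1*, but not those of 5 months, were ordered as in the adipocyte and the fibrillar collagen lists. In 16 genes of NRF2, the regulator of antioxidant defence, and its targets, a set chosen after its values were seen, 4 rose, namely *Nfe2l2* itself (0.58 ± 0.11), *Gclc*, *Gstp1* (0.90 ± 0.16) and the drug efflux pump *Abcb1b* (1.22 ± 0.20). The best known targets *Hmox1* and *Nqo1* were at 0.010 and 0.11 and not called, and the median of the set was 0.18. Genes of oxidative phosphorylation (0 of 19 called, median -0.17) and endoplasmic reticulum chaperones and stress (0 of 21, -0.090) held no call, and in thyroid hormone handling *Dio3* was the only one of 13.

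Another set chosen after its values were seen joined genes of muscle stretch and protein turnover, of which 7 of 17 rose and none fell, with a median of 0.52 in SHR and 0.24 in WKY. *Abra*, an actin-binding protein of striated muscle, had -0.88, -0.14 and -1.17 at 6 weeks and 1.36 and 0.67 at 5 months and changed by 1.73 ± 0.34. *Trim55*, a muscle-specific ubiquitin ligase of the sarcomere, had -1.55, -1.62 and -1.61 at 6 weeks and -0.54 and -0.70 at 5 months and changed by 0.98 ± 0.17. *Fbxo32* (atrogin), a ubiquitin ligase of muscle atrophy, had -0.36, -0.67 and -0.70 at 6 weeks and 0.58 and 0.10 at 5 months and changed by 0.94 ± 0.16. In each of these the SHR/NCrL pool was the higher at 5 months. *Trim54*, *Sypl2*, *Asb11* and the chaperone *Hspb8* rose by 1.25, 1.06, 0.80 and 0.72, while the stretch-induced *Ankrd1* was at -0.074 and the atrophy gene *Trim63* at 0.20 without calls. *Sorbs2* was at 0.52 and not called, whereas a dimmer probe of it was called higher (0.78). Markers of skeletal muscle, which share some of these genes' tissue, had 0 of 8 called and means of -0.083, 0.061 and -0.23 at 6 weeks and -0.23 and -0.27 at 5 months.

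Serine and one-carbon metabolism, also assembled after the values were seen, had 4 of 14 genes lower and none higher. *Phgdh* and *Psat1*, the first enzymes of serine synthesis, were both among them. *Phgdh* had -0.24, 0.73 and 1.002 at 6 weeks and -1.19 and -0.88 at 5 months. *Psat1* had -0.13, 0.86 and 1.05 at 6 weeks and -1.01 and -0.95 at 5 months. They fell by 1.61 and 1.65, and the mitochondrial folate enzymes *Mthfd2* and *Aldh1l2* by 1.33 and 0.72. In *Phgdh* and *Psat1* the SHR/NCrL pool was again the lowest of the 6-week pools. In the family of C1q and tumour necrosis factor related proteins, *C1qtnf12* (-1.24 ± 0.19) and *C1qtnf9* (-0.90 ± 0.20) fell beside *C1qtnf6* among 13 genes. Genes of the circadian clock (0 of 15 called, median 0.27, *Per2* at 0.92) and immediate early genes (0 of 23, 0.077) are listed because the hour and the handling of dissection act on them.

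Maturation in SHR was then set against maturation in WKY. The difference between the changes of both strains was called for 0 of the 30367 probes (0%, limma), 1253 had an unadjusted p under 0.05 and the smallest adjusted p was 0.9998. Of the 313 probes called in SHR, 283 (90.4%) had the same sign in WKY, as had 57.5% of all probes, and for 180 (70 rises and 110 falls) the WKY pools did not overlap in the same direction, as for 13.6% of all probes. The median change of called rises was 0.90 in SHR and 0.43 in WKY, and that of called falls -0.97 and -0.49. The SHR change was the larger for 281 of the 313, but the probes were selected on SHR, in which more arrays were run. By the difference of the changes, the largest positive and negative values among called genes were in *Dio3*, *Esm1*, *Ltbp2* and *Pla2g2a* and in *Myoc*, *Apod*, *H19* and *Mgst1*. *Dio3* changed by 2.84 in SHR and 0.59 ± 0.48 (SE) in WKY, a difference of 2.25 ± 0.63 (SE). *Ltbp2* changed by 1.58 and -0.27 ± 0.38 (SE), a difference of 1.85 ± 0.51 (SE). *Myoc* changed by -2.38 and -0.20 ± 0.45 (SE), a difference of -2.18 ± 0.60 (SE). *Mgst1* changed by -1.82 and -0.016 ± 0.48 (SE), a difference of -1.80 ± 0.63 (SE). The remaining differences were 1.89 (*Esm1*), 1.79 (*Pla2g2a*), -2.08 (*Apod*) and -1.83 (*H19*), and none of the 8 passed the test over all probes. In the paper, WKY/NTac at 6 weeks grouped with the WKY samples of 5 months. This pool was the lowest 6-week WKY pool for *Myoc*, *Apod*, *H19* and *Mgst1*. For *Mgst1* it was at -1.55, against 0.15 in WKY/NCrL and 0.12 in WKY/NHsd. Among the rises it was the highest for *Dio3* and *Pla2g2a* but not for *Esm1* and *Ltbp2*. Its part in the WKY changes above, and in the 281 larger SHR changes, was not tested. *Cxcl14* was at 2.37 in SHR and 3.40 in WKY, and *Pi15* at -1.89 and -2.002.

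**Figure D5:**
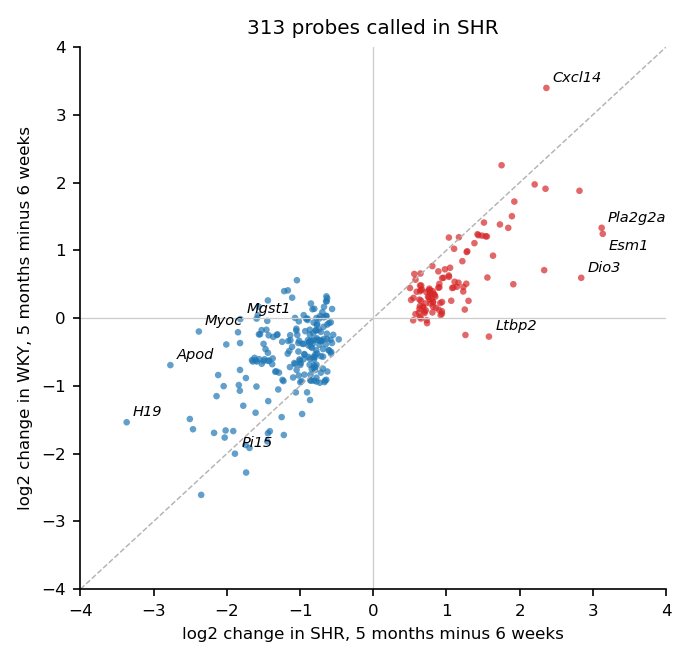
Log2 change from 6 weeks to 5 months in SHR (horizontal axis) against that in WKY (vertical axis) for the 313 probes called in SHR, rises in red and falls in blue, with the dashed line of equal change. Of the 313 points 283 have the same sign in both strains, and for 281 the SHR change is the larger.

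For the 313 called probes, whose pools do not overlap, both sublines measured at both ages changed in the same direction, with different sizes. Over the called rises the median difference of pools was 0.804 within SHR/NCrL and 1.001 within SHR/SP, and over the called falls -0.75 and -1.01. The SHR/SP difference was the larger for 225 of the 313 probes. At 5 months SHR/SP was the higher pool for 68 of the 108 rises and the lower for 113 of the 205 falls. With 1 pool per subline and age these differences have no replicate and were not tested. The shares of all probes with a larger SHR/SP difference or with this order of the 5-month pools were not worked out. These counts are therefore not read as particular to the called probes. Fitted on SHR/NCrL and SHR/SP alone with subline as a block, 687 probes were called, and *Pi15*, *Serpina3n* and *Ndn* changed by -2.03, 2.25 and -1.21, whereas *Myoc* and *Apod*, highest in SHR/NHsd, changed by -1.81 and -2.01 in place of -2.38 and -2.77.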

How the data were processed

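The authors hybridised artery RNA labelled with Cy3 against a Cy5 reference, mixed from all samples, on 2-colour Agilent arrays for the rat. Dyes were not swapped, so pool ratios hold any dye bias, which both ages share. The deposited scanner files contain linear intensity values per spot, extracted by the authors with Feature Extraction. The main values were the deposited log2 ratios of artery over reference, which the authors made with normexp background correction (offset 15), loess and averaging of replicate probes in limma under R 3.0.0. Ratios rebuilt here from the scanner files correlated with them at 0.999883 or above on every array.

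A linear model was fitted in limma 3.58.1 (R 4.3.3) to the 14 passing arrays, with 1 coefficient for each of the 4 combinations of strain and age. Arrays of a pool shared a correlation of 0.444, estimated by duplicateCorrelation. Moderated p-values from eBayes were corrected over all 30367 probes by the method of Benjamini and Hochberg. They measure the spread between pools and between repeat arrays of a pool, and the number of pools limits the precision. In simulated data of 30367 probes the fit for SHR maturation called 80% of probes changed by a log2 value of 1 and 99% of those changed by 2, with 9 false calls. The simulated errors were normal and had the pools and the common correlation that the fit assumes. The simulation therefore cannot show how calls hold where that assumption fails.

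Accessions were matched to the RefSeq genes of GRCr8, which gave 18355 probes (60.4%) a symbol, for 15443 genes. Since the array predates that assembly, probe coordinates are not given. A gene was represented by its probe with the highest mean artery signal (the brightest called one for the largest changes), and a second probe is given for some of the genes that had one. By rule, the text names the 12 top rises and 12 top falls of called genes with separate pools and signal above background on every array of 1 age, up to 4 called members of each list per direction with uncalled members by value, and the 4 largest and 4 smallest differences from WKY. The genes, lists and tests were chosen with earlier results of these data known, and no set test was run. Some genes that the rule chose are not reported here. The SHR/NHsd array of 5 months and 1 WKY array failed quality control and were left out. Promoters were aligned with Biopython 1.88 and figures drawn with matplotlib 3.10.9. The other settings tried are given in the closing section.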

Additional observations from a re-analysis of the deposited data

Results flagged for a closer look

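The array of SHR/NHsd at 5 months, which failed quality control and entered no comparison above, held a signal in the same direction. Set against the SHR/NHsd pool of 6 weeks, it differed in the called direction for 297 of the 313 called probes (94.9%), as against 62.9% of all probes in the direction of their estimate. These were 98 of the 108 rises and 199 of the 205 falls. On that array 60.4% of spots were well above background in the artery channel. The SHR/NHsd pool of 6 weeks is part of the fit that chose the probes, so this count is not independent of it.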

How the results depend on the processing

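Every called probe that could be tested kept its direction under each setting tried, as pools that do not overlap require when 1 is left out, but the count of 313 (108 higher, 205 lower) did not keep its size. Counts are given as total, higher and lower. Rebuilding the ratios with a normexp offset of 50 gave 496 (189 and 307), the processed signals of Feature Extraction 90 (34 and 56), median centring in place of loess 115 (38 and 77), and including both failed arrays 91 (39 and 52). Averaging the arrays of each pool gave 7 (3 and 4), the first array of each pool 9 (5 and 4), and the second where there was one, a setting chosen after seeing the data, 5 (1 and 4). Fitting SHR arrays alone gave 529 (175 and 354). Slide 2 alone gave 343 (87 and 256), and slide as a block 320 (111 and 209). Slide 1 alone held a single SHR pool of 6 weeks, so the absence of calls there is not read further. Subline as a block gave 389 (169 and 220), and SHR/NCrL and SHR/SP alone with subline as a block, chosen after seeing the data, 687 (228 and 459). A rebuild at offset 15, dim probes left out, and eBayes with trend and robust gave 317, 272 and 299. The cause of these differences was not tested.

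With 1 SHR or WKY pool left out at a time the total ran from 12 (without SHR/SP of 5 months) to 464 (without SHR/NCrL of 6 weeks), the rises from 5 to 145 and the falls from 7 to 340. Without SHR/NCrL of 5 months 82 of 136 calls were rises, against 108 of 313 as reported, without SHR/SP or SHR/NHsd of 6 weeks there were 50 and 35 calls, and without a WKY pool 285 to 441. Of 1320 refitted changes of 60 named genes, 783 stayed called, the others lost the call and 0 reversed. The median change kept its sign with any SHR pool left out in 26 of the 40 lists and changed it in 14, among them contractile apparatus (-0.040 to 0.40), complement (-0.26 to 0.45) and macrophages (-0.38 to 0.60), each with its ends set by leaving out a pool of 5 months.

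No source used here says that a replicate number marks a litter or batch. Number 2 of SHR is SHR/SP at both ages, but the other same-numbered pools differ in subline. Same-numbered pools correlated in their deviations from the group mean at -0.0284 and 0.0746 in SHR and 0.0589 and 0.168 in WKY. With 2 pools at 5 months these deviations mirror each other, so the correlations can neither show nor exclude pairs. The main fit took no pools as pairs. A replicate block gave 906 calls (269 and 637) and 36 for the difference from WKY. That difference had 1 call with subline as a block and 0 to 4 with a pool left out, the most without WKY/NCrL of 5 months. Folds given as a lower bound rest on probes that were not above background at 1 age, hold for the artery channel and carry no allowance for error.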
